A study of Mus musculus with 38 samples.

Results

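Ucp3 and Ucp2, the genes of a pair of uncoupling proteins, each had 1 promoter cluster among the 10819 CAGE clusters of the mouse soleus muscle. The clusters were chosen by position alone: the highest peak of a cluster had to lie within 500 bp, on the same strand, of a 5′ end of either gene in the GENCODE M21 annotation of mm10, and 2 clusters met this. Ucp3 was high in all fasted groups, warm or cool, and low in all groups with food, none of which was warm. Ucp2 was also higher in the fasted groups, by a smaller fold, but some of these differences lost their call in alternative fits. Its mean was highest in the warm fasted mice, where macrophage promoters were high as well, but its calls against cool fasted mice were lost when some single libraries were left out. The ratio of Ucp3 to Ucp2 within a library was lower in warm than in cool fasting.

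Uncoupling proteins are carriers of the inner mitochondrial membrane. The first of them, UCP1, lets protons leak back into the matrix of brown fat and so makes heat. UCP3 is the form of skeletal muscle and its mRNA is known to rise with fasting and with fatty acid supply, whereas UCP2 is made in many tissues and is abundant in macrophages and other immune cells. Neither is taken to be a main source of heat, and roles in fatty acid handling and in limiting reactive oxygen species have been proposed for both.

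Promoter activity was measured by nAnT-iCAGE, which counts capped 5′ ends of RNA without amplification, in 38 libraries, 1 per mouse, from the soleus of young adult male C57BL/6J mice. All mice carried the same unmodified genotype, and soleus is a muscle of slow and fast oxidative fibers. Pre mice had free access to food (day 1), Mid mice were sampled in the torpor phase, in torpor or between bouts, after food was withdrawn at low ambient temperature (day 2), and Post mice had their food back (day 3). On day 2, HiT mice were kept fasted at high ambient temperature and did not enter torpor. Dep mice were fasted at low ambient temperature and kept from torpor by touching, and Fed mice kept their food at low ambient temperature. No group had food at high ambient temperature. For 2 groups the sources conflict, because the design text of the record lists HiT with food and the condition label of Fed reads starvation. The description of the study, fasted HiT and fed Fed mice, is used here, and every statement on warm fasting rests on it. The first sequencing run held 4 Pre, 8 Mid, 4 Post, 4 Fed, 4 Dep and 4 HiT libraries, and the second run 2 Pre, 5 Mid and 3 Post libraries.

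Libraries of the first run had between 18257657 and 39176649 tags in clusters, and those of the second between 9359994 and 20914855. Over the 38 libraries, Ucp3 was supported by between 47 and 2929 tags and Ucp2 by between 70 and 971, so both were detected in every mouse. Levels are given as TPM, the tags of a cluster scaled to all tags of its library. Since 1 tag is 1 capped end, levels of the 2 promoters can be compared without a correction for length. The markers that define skeletal muscle were high in every library, with 7 of 7 measured and summed levels between 14895 and 32140.5 TPM in the first run, lowest in HiT replicate 4, and between 52303 and 72593 TPM in the second. The soleus is a mixture of cells, and in such samples a change in the number of cells of a type cannot be told apart from a change in RNA per cell.

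The 2 promoters lie in tandem on the plus strand of chromosome 7, with Ucp3 upstream and 20389 bp between their peaks. The Ucp3 cluster covered chr7:100472815-100473094 in mm10, with its highest peak at 100472967, 23 bp before the nearest of 4 annotated 5′ ends. The Ucp2 cluster covered chr7:100493296-100493465, with its peak at 100493356, 2 bp after the nearest of 11 annotated ends. The letters around both starts are shown because they fix which start was measured. They run from 30 bases before the peak to 10 after it on the plus strand (GRCm38.p6, sequence from RefSeq), and the capitals mark the pyrimidine and purine that follow the peak directly.
Ucp3, chr7:100472937-100472977: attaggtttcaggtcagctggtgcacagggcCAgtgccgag
Ucp2, chr7:100493326-100493366: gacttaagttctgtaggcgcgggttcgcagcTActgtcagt
A pyrimidine and purine at these positions are the usual letters of an initiator, and they stood 1 and 2 bases after the peak in 77.3% of 2348 clusters on the plus strand and in 79% of 2207 on the minus strand that fell in a RefSeq promoter window. The tabulated peaks thus lay just upstream of the initiating purine in most clusters, Ucp2 and Ucp3 among them.

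The sequence upstream of each gene is shown because both promoters respond to fasting and because nuclear receptor and E box motifs are known from uncoupling protein genes. It is given up to the first annotated 5′ end, and capitals mark matches to the 5 motifs. Motifs were searched on both strands of a wider window, the RefSeq promoter from 250 bases before to 50 after the start of the gene. Nuclear receptors bind AGGTCA and, as pairs, the direct repeat AGGTCANAGGTCA, which holds that motif. Myogenic factors bind the E box, searched as CAGCTG. FOXO factors bind TGTTTAC, and the TATA box was searched as TATAAA.
Ucp3, chr7:100472741-100472989: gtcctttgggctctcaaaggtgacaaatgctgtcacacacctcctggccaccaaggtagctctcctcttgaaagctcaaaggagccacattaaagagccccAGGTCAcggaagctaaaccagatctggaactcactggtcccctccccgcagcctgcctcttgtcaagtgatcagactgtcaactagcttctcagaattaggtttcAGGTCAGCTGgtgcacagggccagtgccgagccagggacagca
Ucp2, chr7:100493108-100493336: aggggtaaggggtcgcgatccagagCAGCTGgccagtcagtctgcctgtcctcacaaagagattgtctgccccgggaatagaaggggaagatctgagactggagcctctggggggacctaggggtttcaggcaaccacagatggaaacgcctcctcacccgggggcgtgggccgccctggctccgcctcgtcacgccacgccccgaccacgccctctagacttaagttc
The Ucp3 promoter window held AGGTCA on the plus strand with its first base at -125 and at -20 bp from the peak, and the latter overlapped an E box at -16. Ucp2 held an E box at -223 bp. Of 32851 RefSeq promoter windows of this kind, 16.3% held AGGTCA and 16.3% held CAGCTG, so such matches are common. The direct repeat was found in 0.0396% of the windows, the FOXO letters in 3.65% and TATAAA in 13.6%, and none of these letters were in the window of either gene. The same windows of 250 bases before to 50 after the start differed in composition. That of Ucp2 had 21 CpG dinucleotides and 64.3% G or C, against 5 and 55% for Ucp3, and medians of 7 and 52.7% over all promoters.

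Ucp3 was compared first along the reversible course of torpor. In the first run, the 4 Pre libraries had 13, 10.2, 13 and 11.7 TPM of Ucp3. The 8 Mid libraries ranged from 26.9 to 105 TPM around a median of 78.7, and the 4 Post libraries had 10.6, 8.90, 11.1 and 11 TPM. All Mid libraries lay above all Pre and Post libraries, and Mid replicate 6, the lowest, was still above them. The change from the Pre to Mid was 2.72 on the log2 scale (SE 0.27, FDR = 7.62e-08 by the quasi-likelihood test of edgeR), a 6.58-fold rise, and ranked 25 of 10776 clusters by FDR in a comparison in which 15.4% of all clusters were called higher. From the Mid to Post it fell by 2.86 (SE 0.27, FDR = 1.67e-08), where 17.5% were called lower. The Post mice differed from the Pre mice by -0.14 (SE 0.28, FDR = 0.894), with 1.85% of clusters called in either direction.

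Ucp2 rose and fell in the same comparisons by less. The Pre libraries had 7.46, 7.61, 6.33 and 9.14 TPM, the Mid libraries ranged from 6.47 to 23.8 TPM with a median of 12.6, and the Post libraries had 7.93, 5.91, 6.58 and 8.55 TPM. Of the 8 Mid libraries, 7 lay above all Pre libraries, while Mid replicate 6 was within their range, so the groups overlapped. The rise from the Pre to Mid was 0.90 (SE 0.23, FDR = 0.00438) and the fall from the Mid to Post was as large (-0.90, SE 0.23, FDR = 0.00376). Post and Pre mice differed by 0.00 (SE 0.26, FDR = 1.00).

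**Figure D1:**
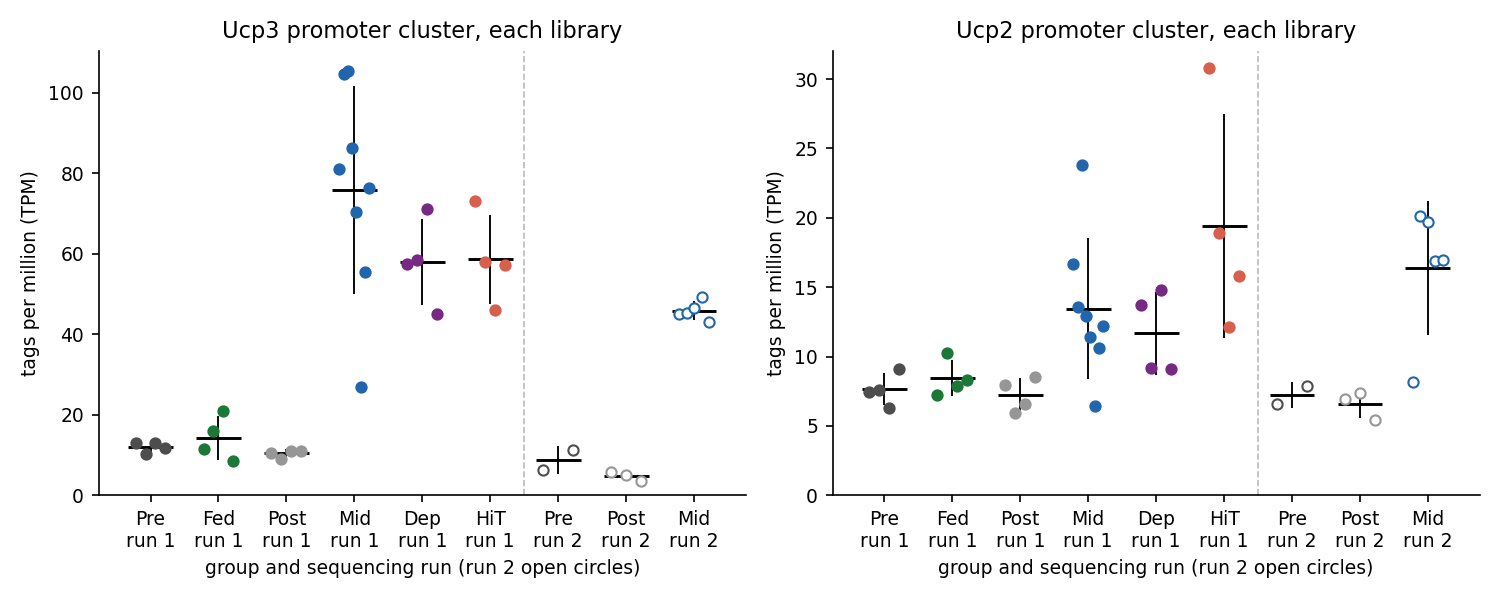
Level of the Ucp3 (left) and Ucp2 (right) promoter clusters in TPM, with 1 point per library, by group and sequencing run. Bars are the mean and lines the SD. In the first run, Mid, Dep and HiT mice stand apart from Pre, Fed and Post mice in Ucp3, with means from 58.0 to 75.8 against 10.4 to 14.3 TPM. In the second run the Ucp3 means are 45.8 TPM in Mid, 8.79 in Pre and 4.83 in Post mice. In Ucp2 the groups of the first run overlap with their neighbours in rank and HiT has the highest mean, 19.4 TPM.

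The second run repeated the course in other mice. The 2 Pre libraries had 6.40 and 11.2 TPM of Ucp3, the 5 Mid libraries 45.0, 45.2, 46.6, 49.3 and 43.0 TPM, and the 3 Post libraries 5.81, 5.03 and 3.65 TPM. The 3 groups did not overlap, and Mid libraries were close to each other. Ucp3 rose by 2.44 from the Pre to Mid (SE 0.21, FDR = 0.000187, with 5.3% of clusters called higher) and fell by 3.30 from the Mid to Post (SE 0.19, FDR = 6.36e-06, with 8.65% called lower). The change of Ucp3 did not differ detectably between the runs, by -0.27 for the rise (SE 0.40, FDR = 0.998) and -0.45 for the fall (SE 0.37, FDR = 0.827), in interaction tests of edgeR that called 0% of 10819 clusters. At an unadjusted p under 0.05 these tests listed 551 and 682 clusters.

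Ucp2 had 6.58 and 7.87 TPM in the 2 Pre libraries of the second run, 8.20, 20.1, 19.7, 16.9 and 17 TPM in the 5 Mid libraries and 6.93, 7.39 and 5.44 TPM in the 3 Post libraries. Mid libraries lay above all others, with Mid replicate 9 only just above the higher Pre library. The rise was 1.24 (SE 0.30, FDR = 0.0258) and the change back was -1.39 (SE 0.25, FDR = 0.00385). The call of the rise was lost without Pre replicate 5 (1.14, FDR = 0.184), Pre replicate 6 (1.36, FDR = 0.129), Mid replicate 12 (1.22, FDR = 0.0534) or Mid replicate 13 (1.2, FDR = 0.0524), and with lane 3 only (1.21, FDR = 0.0769). The runs did not differ detectably in the rise (0.35, SE 0.40, FDR = 0.998) or the fall of Ucp2 (-0.50, SE 0.36, FDR = 0.796). In the second run, Pre libraries and 4 of the 5 Mid libraries were on lane 3, and all Post libraries and Mid replicate 13 on lane 4. On lane 4, Mid replicate 13 had 43.0 TPM of Ucp3 and 17 TPM of Ucp2, within or near the range of the lane 3 Mid libraries and above all 3 Post libraries.

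The Fed mice had food on the same day as the Mid mice, also at low ambient temperature. Mid and Fed mice thus differed in food and in torpor together, and these cannot be told apart here. Ucp3 was at 11.6, 16, 21.1 and 8.62 TPM in the 4 Fed libraries, all below every Mid library. It was higher in Mid than in Fed mice by 2.50 (SE 0.26, FDR = 1.63e-07), in a comparison with 16.6% of clusters called higher. Ucp2 was at 7.25, 10.3, 7.90 and 8.31 TPM in these libraries, again with Mid replicate 6 below all of them and the other 7 Mid libraries above. Its difference was 0.76 (SE 0.23, FDR = 0.0115), a call lost without TMM scaling (0.66, FDR = 0.0584). Fed mice did not pass the test against Pre mice for Ucp3 (0.22, SE 0.28, FDR = 0.667) or Ucp2 (0.14, SE 0.26, FDR = 0.785), while 11.2% of clusters did. The approximate 95% intervals of these differences reached from -0.33 to 0.76 for Ucp3 and from -0.37 to 0.65 for Ucp2.

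The Dep mice were fasted in the cool like the Mid mice, but were touched to keep them from torpor, and since Mid mice could be between bouts, this comparison does not isolate torpor. Their Ucp3 was at 57.6, 58.3, 71.1 and 45.0 TPM, within the range of the Mid libraries and above all Pre libraries. Dep and Mid mice differed by -0.29 (SE 0.23, FDR = 0.514), in a comparison with 2.03% of clusters called, and Dep and Pre mice by 2.43 (SE 0.28, FDR = 7.58e-07), with 13.7% called higher. Ucp2 was at 13.7, 9.15, 14.8 and 9.09 TPM, and 3 of the 4 Dep libraries lay above all Pre libraries. It differed by -0.11 from Mid (SE 0.22, FDR = 0.813) and by 0.79 from Pre mice (SE 0.26, FDR = 0.0265). That call was lost without Pre replicate 2 (0.75, FDR = 0.0680), Pre replicate 3 (0.74, FDR = 0.0688), Dep replicate 1 (0.69, FDR = 0.0789) or Dep replicate 3 (0.74, FDR = 0.0595), and without TMM scaling (0.61, FDR = 0.148). Dep replicate 1 also held neutrophil markers at a summed 117 TPM, against 0.113 to 1.74 TPM in all other libraries of the first run, and the part of these cells in its Ucp2 level was not tested.

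Warm and cool fasting were compared in HiT, Mid and Dep mice, and the comparisons of HiT share its 4 libraries. Ucp3 was at 73.2, 57.9, 46.1 and 57.1 TPM in the HiT libraries, all within the range of the Mid libraries. HiT and Mid mice differed by -0.23 (SE 0.23, FDR = 0.442, approximate 95% interval -0.68 to 0.22), where 41% of all clusters were called in either direction, and HiT and Dep mice by 0.05 (SE 0.26, FDR = 0.912, interval -0.46 to 0.57), where 26.5% were called. Against groups with food in the cool, Ucp3 was higher in HiT mice, by 2.49 over Pre (SE 0.28, FDR = 3.34e-07, 18.5% called higher) and by 2.27 over Fed mice (SE 0.28, FDR = 8.81e-07, 23.3% called higher). These comparisons change food and temperature together, since no group had food in the warm. No HiT library overlapped with a Pre or Fed library. The high Ucp3 level was therefore found in all 3 fasted groups, Mid, Dep and HiT.

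Ucp2 was at 30.8, 18.9, 12.1 and 15.8 TPM in the HiT libraries, all above the 4 Pre and 4 Fed libraries. HiT exceeded Pre mice by 1.51 (SE 0.26, FDR = 6.69e-05) and Fed mice by 1.37 (SE 0.26, FDR = 0.000160), where food and temperature again change together. It exceeded Mid mice by 0.61 (SE 0.21, FDR = 0.0245), a 1.53-fold difference in a comparison in which 21.8% of clusters were called higher, although only HiT replicate 1 lay above all Mid libraries. It exceeded Dep mice by 0.72 (SE 0.25, FDR = 0.0362, 15.3% called higher), with 3 of 4 HiT libraries above all Dep libraries. The call against Mid mice was lost without HiT replicate 1 (0.44, FDR = 0.135) or HiT replicate 4 (0.51, FDR = 0.0906), and also without TMM scaling (0.53, FDR = 0.104), with only these 2 groups in the fit (0.61, FDR = 0.0818) and with a replicate block (0.32, FDR = 0.291), which rests on Mid replicates 1 to 4. That against Dep mice was lost without HiT replicate 1 (0.55, FDR = 0.149), HiT replicate 4 (0.62, FDR = 0.101), Dep replicate 2 (0.62, FDR = 0.106) or Dep replicate 4 (0.67, FDR = 0.0904), and without TMM scaling (0.73, FDR = 0.0984).

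**Figure D2:**
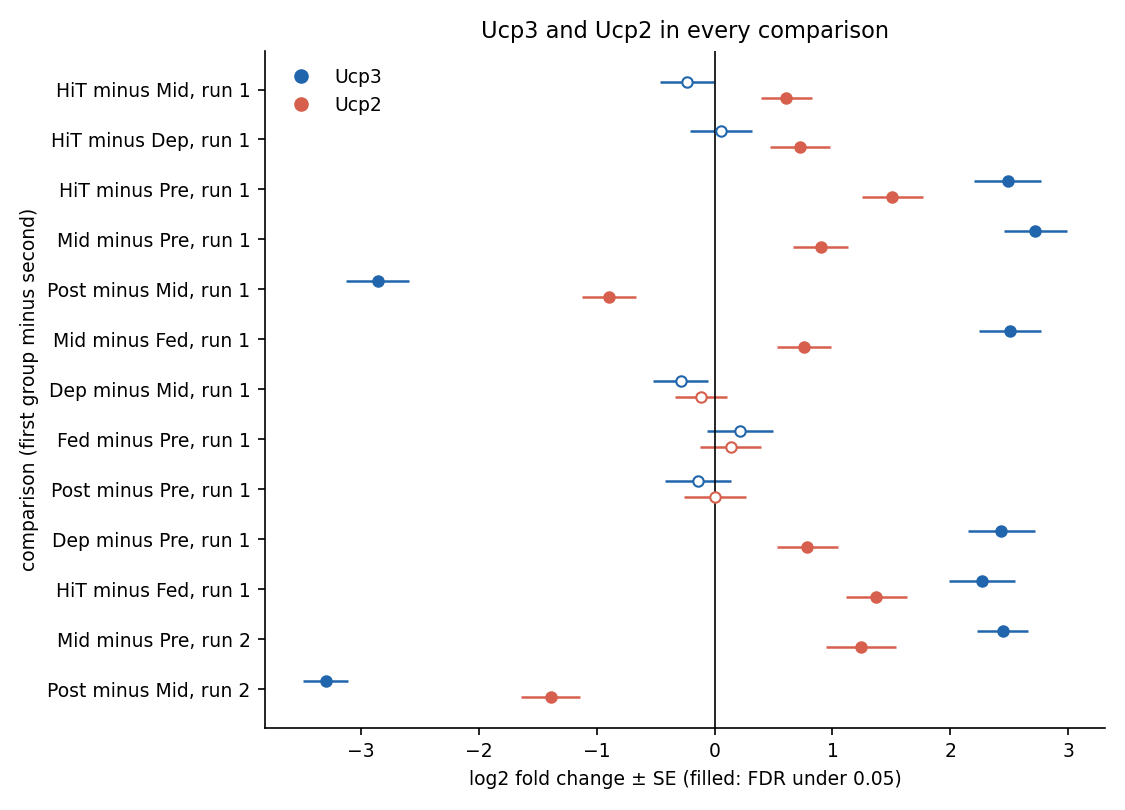
Log2 fold change of Ucp3 (blue) and Ucp2 (red) in each comparison, first group minus second, with SE as the line. Filled points passed an FDR of 0.05. Ucp3 moved by over 2 on this scale in each comparison of a fasted with a fed group. Ucp2 alone passed the test between HiT and the cool fasted groups, and these calls were lost when some single libraries were left out.

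Macrophage markers moved with Ucp2 in the HiT mice. Of 15 markers listed, 10 had a cluster, and 10 of 10 were higher in HiT than in Mid mice, where 21.8% of all clusters were, with a median difference of 2.05 against -0.02 over all clusters. They included Cd68, a lysosomal protein (17.2 against 2.32 TPM), Tyrobp, an adaptor of myeloid receptors (21.2 against 3.06 TPM), C1qa of complement (21.7 against 4.94 TPM) and Lyz2, lysozyme (122 against 25.4 TPM). The summed level of the 10 promoters was 517, 337, 174 and 219 TPM in HiT replicates 1 to 4, against 46.6 to 120.5 TPM in the other libraries of the first run. The order of the 4 HiT libraries by macrophage markers was thus the order by Ucp2, with replicate 1 highest and replicate 3 lowest in both. Replicate 1 was also the highest HiT library in the summed fatty acid, regulator, antioxidant, endothelial, fiber and general muscle lists described below. In the carrier and adipocyte lists replicate 3 was. These levels are TPM without TMM scaling, whose factor was 1.18 in HiT replicate 1 and 0.679 in HiT replicate 4. In the cool, 1 of 10 rose from the Pre to Mid, Cd163 (0.93, SE 0.24, FDR = 0.00442), where 15.4% of all clusters rose, and 0 of 10 differed between Dep and Mid mice, where 2.03% of all did. The summed markers were at 64.4 to 118 TPM in Pre and 64.2 to 96.2 TPM in Mid mice of the first run. Among these Mid libraries, replicate 3 was highest in both Ucp2, at 23.8 TPM, and summed markers. That library was also the highest of them in Ucp3, at 105 TPM. Among the Mid libraries of the second run, replicate 10 was highest in both, at 20.1 TPM of Ucp2 and 114 TPM of markers. In all other groups the libraries highest in Ucp2 and in markers were not the same. In the first run they were Pre replicates 4 and 2, Fed 2 and 4, Post 4 and 3 and Dep 3 and 1. In the second run they were Pre replicates 6 and 5 and Post 6 and 7. None of the 10 was at 0 in all libraries of a group, and Adgre1, Cd14, Fcgr1, Ptprc and Itgam were not analysed here. Without HiT replicate 1, 9 of 10 were higher in HiT than in Mid mice. The part of macrophages in the Ucp2 level of HiT mice was not tested. Ucp3, which did not pass the test between HiT and Mid mice, followed the same order within the HiT libraries.

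**Figure D3:**
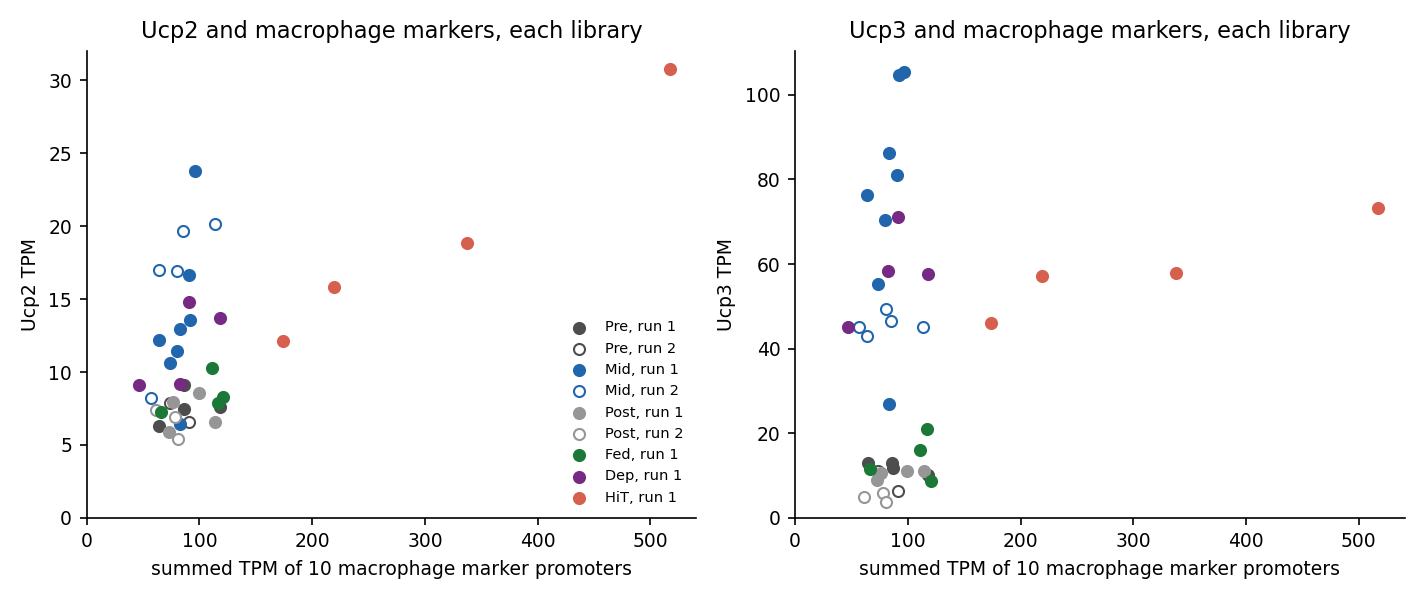
Level of Ucp2 (left) and Ucp3 (right) against the summed level of 10 macrophage marker promoters, both in TPM, with 1 point per library and open points for the second run. The 4 HiT libraries lie to the right, from 174 to 517 TPM of markers. Mid libraries reach up to 23.8 TPM of Ucp2, in replicate 3, which has the highest markers of the first-run Mid libraries, 96.2 TPM. In the Pre, Fed, Post and Dep groups the library highest in Ucp2 is not the one highest in markers.

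The counts of the other marker lists between HiT and Mid mice stand beside 21.8% of all clusters called higher and 19.2% called lower. Neutrophil (0 of 4) and adipocyte markers (0 of 9) had no member past the test. Endothelial markers had 1 of 8 higher (Cldn5, a tight junction protein) and 2 lower (Egfl7 and Flt1). Fast fiber markers had 1 of 10 higher (Mylpf) and 2 lower (Myh4 and Pvalb), slow fiber markers 1 of 9 higher (Csrp3) and 4 lower (Myh7, Myl2, Myl3 and Atp2a2), and general muscle markers 1 of 7 higher (Acta1) and 3 lower (Mb, Ckm and Ttn). The part of the fiber makeup in the levels of Ucp2 and Ucp3 was not tested.

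The ratio of Ucp3 to Ucp2 within a library does not depend on how libraries are scaled. It was 1.74, 1.34, 2.06 and 1.28 in Pre, 1.60, 1.56, 2.67 and 1.04 in Fed and 1.34, 1.51, 1.69 and 1.29 in Post libraries of the first run. It ranged from 4.16 to 7.69 with a median of 5.70 in the 8 Mid libraries, and was 4.21, 6.38, 4.81 and 4.95 in Dep and 2.38, 3.07, 3.81 and 3.61 in HiT libraries. HiT libraries thus lay below all Mid and Dep libraries and above all Pre and Post libraries. They overlapped with Fed libraries, since Fed replicate 3, at 2.67, lay above HiT replicate 1, at 2.38. The mean log2 ratio was lower in HiT than in Mid mice by 0.81 (difference -0.81, SE 0.19, exact two-sided permutation p = 0.00202, adjusted p = 0.00556 over 11 comparisons), the smallest p that 4 against 8 mice allow. The fold change of the 2 promoters was therefore unequal between warm and cool fasting. Leaving out each of the 12 libraries in turn kept this difference between -0.90 and -0.68 with adjusted p up to 0.0167.

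Against Dep mice the log2 ratio of HiT mice was lower by 0.66 (-0.66, SE 0.20, exact permutation p = 0.0286, adjusted p = 0.0449), the smallest p that 4 against 4 mice allow. Without HiT replicate 1 it was -0.53 and without Dep replicate 2 -0.55, each with adjusted p = 0.0786. Mid exceeded Pre mice by 1.82 (SE 0.19) and Fed mice by 1.78 (SE 0.30), both with exact permutation p = 0.00202 and adjusted p = 0.00556, and Post mice lay 1.94 below Mid mice (-1.94, SE 0.14, same p). Dep and Mid mice did not differ detectably (-0.15, SE 0.17, exact permutation p = 0.406, adjusted p = 0.496). Dep exceeded Pre mice by 1.67 (SE 0.20, exact permutation p = 0.0286, adjusted p = 0.0449), without overlap. The call was lost without Pre replicate 2 (1.59), Pre replicate 4 (1.57) or Dep replicate 2 (1.56), each with adjusted p = 0.0524. The permutation p stayed at 0.0286 in each, so these losses came from the adjustment over the other comparisons. HiT exceeded Pre mice by 1.01 (SE 0.22, exact permutation p = 0.0286, adjusted p = 0.0449), which was lost without Pre replicate 2 (0.93, adjusted p = 0.0786), Pre replicate 4 (0.91, adjusted p = 0.0786) or HiT replicate 1 (1.14, adjusted p = 0.0524). Without HiT replicate 1 the difference was larger and the permutation p again stayed at 0.0286. HiT and Fed mice overlapped through Fed replicate 3 and did not pass (0.97, SE 0.32, exact permutation p = 0.0571, adjusted p = 0.0786), but did so without that library (1.2, adjusted p = 0.0393).

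In the second run the ratio was 0.973 and 1.42 in Pre, 5.49, 2.25, 2.37, 2.92 and 2.53 in Mid and 0.839, 0.680 and 0.671 in Post libraries, so that Ucp2 was the higher of the 2 promoters in all 3 Post libraries and in Pre replicate 5. Mid exceeded Pre by 1.31 (SE 0.36, exact permutation p = 0.0476) and Post minus Mid was -2.0 (SE 0.25, exact permutation p = 0.0179, adjusted p = 0.0357), and each is the smallest p that so few mice allow. The first call was lost without any 1 of the 7 libraries (1.04 to 1.58), and the second without any 1 of the 5 Mid libraries (-2.09 to -1.77, adjusted p = 0.0571). The ratio of Mid mice was lower in the second run than in the first, at a mean of 3.11 against 5.68, and the run and the mice cannot be told apart.

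**Figure D4:**
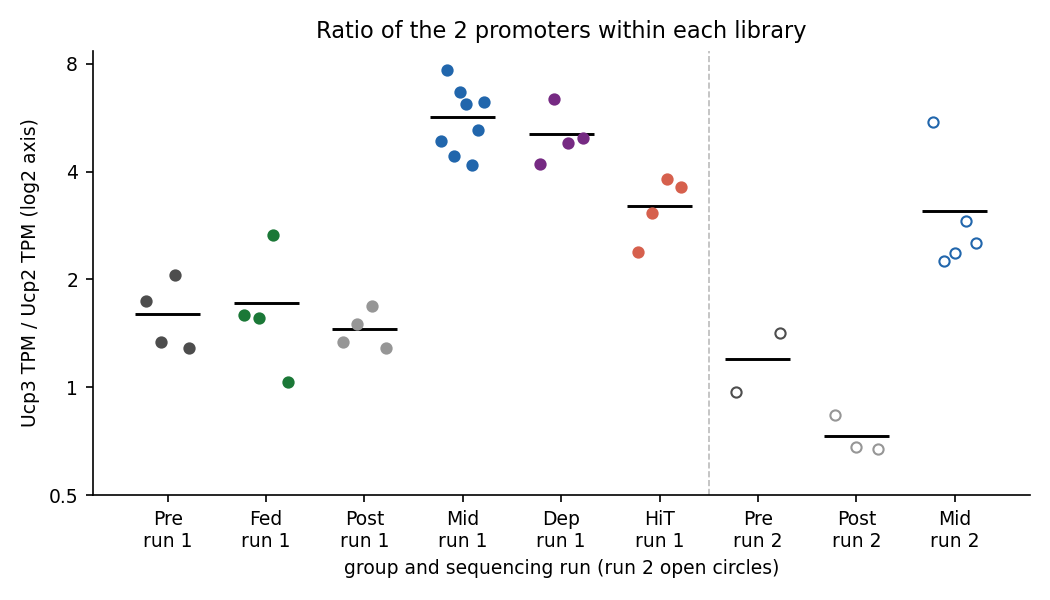
Ratio of Ucp3 to Ucp2 in each library on a log2 axis, with the mean as a bar. HiT libraries, from 2.38 to 3.81, lie below all Mid libraries of the first run, from 4.16 to 7.69, and above all Pre libraries.

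In rank among all clusters, the mean level of Ucp3 exceeded 36.4% of clusters in Pre, 40.7% in Fed and 33.4% in Post mice, and 86.0% in Mid, 83.1% in Dep and 83.2% in HiT mice. Ucp2 exceeded 18.9% in Pre, 42.8% in Mid and 56.2% in HiT mice. The order of the Ucp3 means in the first run was Mid, HiT, Dep, Fed, Pre and Post, and among neighbours only Dep and Fed did not overlap. The order of the Ucp2 means was HiT, Mid, Dep, Fed, Pre and Post, and all neighbours overlapped. By mean and SD, Ucp3 was at 75.8 ± 25.8 TPM in Mid (n = 8), 58.6 ± 11.1 in HiT, 58.0 ± 10.7 in Dep, 14.3 ± 5.43 in Fed, 12 ± 1.36 in Pre and 10.4 ± 1.02 in Post mice (n = 4 each). Ucp2 was at 19.4 ± 8.07 TPM in HiT, 13.5 ± 5.08 in Mid, 11.7 ± 2.99 in Dep, 8.44 ± 1.30 in Fed, 7.63 ± 1.15 in Pre and 7.24 ± 1.21 in Post mice.

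The promoters with the pattern most like that of Ucp3 over the 6 groups of the first run were those of Slc25a34, another mitochondrial carrier, Depp1, a FOXO target, Cebpd, a bZIP transcription factor, Myc, a transcription factor of growth, and Tacc2, a centrosomal protein. Likeness was the root mean square difference of group means of log2 CPM, each centred on its own mean, over 9439 annotated clusters, and was 0.22 for Slc25a34 and 0.29 for Tacc2. All 5 were high in Mid, Dep and HiT mice, which follows from their selection on these same group means. Over the 3 groups of the second run they ranked between 9 and 36 in likeness to Ucp3. For Ucp2 the most alike were Alpk2, an atypical kinase, the predicted genes Gm5513, Gm13167 and Gm5529, and Cd163, a scavenger receptor of macrophages that is also on the marker list. Their differences from Ucp2 ran from 0.07 for Alpk2 to 0.14 for Cd163, and in the second run they ranked between 4 and 229. Tags of predicted genes can be shared with near-identical copies, so these 3 are uncertain. Ucp2 itself differed from Ucp3 by 0.81, which ranked Ucp2 134 of 9439 in likeness to Ucp3 and Ucp3 8808 in likeness to Ucp2. The measure is not scaled to the size of a change, which therefore enters these ranks beside the pattern. Centred means ran from -1.40 to 1.38 for Ucp3 and from -0.54 to 0.94 for Ucp2.

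**Figure D5:**
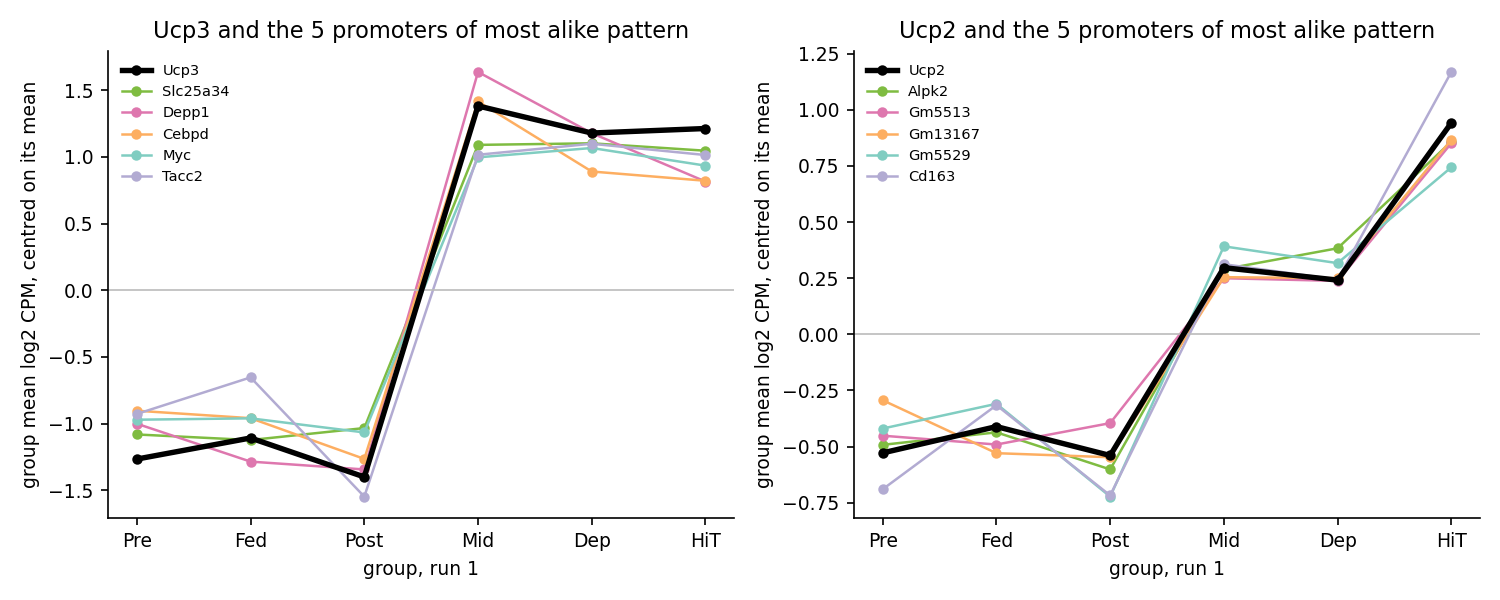
Group means of log2 CPM in the first run, centred on their mean over 6 groups, for Ucp3 (left) and Ucp2 (right) in black and the 5 promoters of most alike pattern in colour. Ucp3 and its companions form a low plateau in Pre, Fed and Post and a high one in Mid, Dep and HiT, whereas Ucp2 and its companions take a further step up in HiT, to 0.94 for Ucp2. The companions were chosen for their likeness over these same 6 means.

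The genes around the pair did not rise from the Pre to Mid in the first run. Within 100 kb, 3 other genes had a cluster, all on the side of Ucp2. Coa4, an assembly factor of cytochrome oxidase, was at 8.08 TPM in Pre and 8.07 in Mid mice (0.09, SE 0.12, FDR = 0.603) and was higher in HiT than in Mid mice by 0.36 (SE 0.11, FDR = 0.0131). Cox20b fell from the Pre to Mid by 0.62 (SE 0.11, FDR = 0.000150), and Mrpl48, of the mitochondrial ribosome, fell by 0.31 (SE 0.09, FDR = 0.0120).

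Of the related carriers listed, 4 had a cluster besides Ucp2 and Ucp3, namely Slc25a4 and Slc25a5, the ADP/ATP carriers, Slc25a11, the oxoglutarate carrier, and Slc25a20, which carries acylcarnitine. From the Pre to Mid, Slc25a20 rose by 0.46 (SE 0.09, FDR = 0.000503) and Slc25a5 by 0.69 (SE 0.16, FDR = 0.00191), Slc25a11 fell by 0.19 (SE 0.06, FDR = 0.0193), and Slc25a4 did not pass (-0.11, SE 0.11, FDR = 0.438). Of all clusters, 15.4% rose and 14.8% fell. Between HiT and Mid mice, where 21.8% of all clusters were higher and 19.2% lower, 0 of 4 were higher and 2 lower, Slc25a11 (-0.25, SE 0.06, FDR = 0.00209) and Slc25a4 (-0.36, SE 0.11, FDR = 0.010). The fall of Slc25a11 from the Pre to Mid was lost without HiT replicate 4 (-0.17, FDR = 0.0527), and without TMM scaling 0 of 4 passed from the Pre to Mid and 1 was lower in HiT than in Mid mice. Ucp1, Slc25a27, Slc25a14 and Slc25a30 were not analysed here.

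Of the genes of fatty acid uptake and oxidation, 16 of 30 rose in cool fasting, and 13 were lower in warm than in cool fasting. From the Pre to Mid, these 16 rose, 0 fell and 14 did not pass, where 15.4% of all clusters rose and 14.8% fell, with a median of 0.27 against 0.01 over all clusters. With upper-quartile scaling 14 rose and 1 fell, and without TMM scaling 9 rose and 0 fell. Pdk4, the kinase that shuts off pyruvate dehydrogenase, rose by 3.42 (SE 0.29, FDR = 2.05e-08). The thioesterases Acot1 (3.24, SE 0.31, FDR = 4.14e-08) and Acot2 (1.85, SE 0.17, FDR = 3.61e-08) rose as well, and since they are near-identical copies their shares are uncertain. Plin5, a lipid droplet protein, rose by 1.27 (SE 0.13, FDR = 1.09e-07). Between HiT and Mid mice, 3 of 30 were higher (Acot1, Acot2 and Angptl4) and 13 lower, with a median of -0.25 against -0.02, where 21.8% of all clusters were called higher and 19.2% lower. Among the lower were Etfa (-0.44, SE 0.07, FDR = 7.30e-06) and Etfdh (-0.42, SE 0.09, FDR = 0.000321) of the electron transfer from acyl-CoA dehydrogenases, the fatty acid transporter Cd36 (-0.41, SE 0.08, FDR = 0.000285) and the dehydrogenase Hadh (-0.36, SE 0.08, FDR = 0.000989). Against Pre mice, HiT mice had 12 of 30 higher and 4 lower, beside 18.5% and 14.9% of all clusters, with a median of -0.02 against 0.04. Pdk4 was at 4082 TPM in HiT and 4553 TPM in Mid mice and did not pass between them (-0.05, SE 0.25, FDR = 0.898). Without HiT replicate 1, 1 of 30 was higher and 13 lower between HiT and Mid mice, and without TMM scaling 0 were higher and 8 lower.

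Regulators known to act on uncoupling protein genes moved in both directions. From the Pre to Mid, 6 of 21 rose and 5 fell, and between HiT and Mid mice 2 were higher and 9 lower, with a median of -0.32. Of all clusters, 15.4% rose and 14.8% fell in the former comparison, and 21.8% were higher and 19.2% lower in the latter. With upper-quartile scaling 5 rose and 6 fell from the Pre to Mid. Ppara, the fatty acid receptor, had a mean of 27.8 TPM in Pre, 67.9 in Mid and 27.6 in HiT mice. It rose by 1.36 from the Pre to Mid (SE 0.13, FDR = 5.96e-08) and was lower in HiT than in Mid mice by 1.18 (-1.18, SE 0.13, FDR = 7.81e-08). Ppargc1a, a coactivator of mitochondrial genes, was also highest in Mid mice, but its HiT mean lay above its Pre mean. Its means were 7.10 TPM in Pre, 182 in Mid and 30.1 in HiT mice. It changed by 4.78 from the Pre to Mid (SE 0.67, FDR = 7.07e-06) and by -2.46 from Mid to HiT mice (SE 0.57, FDR = 0.00129).

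Foxo1 was lower in HiT than in Mid mice by 1.26 (-1.26, SE 0.20, FDR = 1.60e-05), and Foxo3 rose by 1.1 from the Pre to Mid (SE 0.17, FDR = 2.29e-05). Both are fasting factors of muscle. The myogenic factors, which bind E boxes, went the other way: Myog was at 4.54 TPM in Mid and 24.8 TPM in HiT mice (2.53, SE 0.14, FDR = 6.61e-13), and Myod1, which fell from the Pre to Mid by 2.17 (SE 0.29, FDR = 3.88e-06), was higher in HiT than in Mid mice by 1.76 (SE 0.29, FDR = 3.01e-05). Pparg, Esrrg and Dio2 were not analysed here.

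Of 12 antioxidant enzymes listed, 2 rose from the Pre to Mid, Cat (0.61, SE 0.11, FDR = 0.000172) and Sod1 (0.24, SE 0.08, FDR = 0.0278), and 0 fell. This was near the 15.4% of all clusters that rose. With upper-quartile scaling 1 rose and 2 fell, and the call of Sod1 was lost (0.17, FDR = 0.102). Between HiT and Mid mice 6 were lower, where 19.2% of all clusters were, among them Prdx3 (-0.38, SE 0.06, FDR = 1.04e-05), Sod2 (-0.35, SE 0.08, FDR = 0.00157) and Prdx5 (-0.24, SE 0.06, FDR = 0.00267), and Gpx1 was higher (0.70, SE 0.22, FDR = 0.0114). The call of Gpx1 was lost without HiT replicate 1 (0.58, FDR = 0.0569), the library with the highest macrophage markers, whose part in it was not tested. Without TMM scaling 0 of 12 were higher and 2 lower in HiT than in Mid mice.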

How the data were processed

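Per the labels, alignment by the authors used BWA and HISAT2 against mm10, after which 5′ ends were joined into clusters. The deposited values are tag counts for each cluster and library, not normalized, and TPM, which the authors scaled to all tags of a library. Columns not tied to a sample were 0.

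Clusters were assigned to the nearest GENCODE M21 5′ end within 500 bp. With edgeR 4.0.16 in R 4.3.3, counts were scaled by TMM and tested by quasi-likelihood, with group as the only term, in 1 fit per run over clusters with any tag (10776 and 10816), and Benjamini-Hochberg FDR under 0.05 as the threshold. SEs were derived from the F statistic, and approximate intervals from the SE. Common dispersions were 0.0377 and 0.0391. The ratio of Ucp3 to Ucp2 was tested on log2((Ucp3 + 0.1)/(Ucp2 + 0.1)) by exact two-sided permutation of the absolute difference in means. Replicates are separate mice. The fits were tested on simulated counts. No libraries were duplicates (lowest chi-square per cluster 12.4 over 72 pairs).

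Members and gene lists were chosen with earlier results of these data known. Each list gene is represented by its most abundant cluster. Named were the clusters of both genes, the 5 most alike of each, up to 4 list genes of lowest FDR in HiT minus Mid and in Mid minus Pre, and genes within 100 kb; other list genes, such as Angptl4 or Myl3, were named after their values were seen. Likeness used log2 CPM with a prior count of 1. Alternatives were other scalings, filters, tools, samples and pseudocounts. HiT and Dep mice were in 1 run only.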

Additional observations from a re-analysis of the deposited data

Results flagged for a closer look

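Mid replicate 9 of the second run stood apart in 2 measures by the test of Dixon. Its Ucp2 level was 8.20 TPM, while the other 4 Mid libraries of that run had 16.9 to 20.1 TPM. Its ratio of Ucp3 to Ucp2 was 5.49, while the others had 2.25 to 2.92. Ucp3 was not unusual in it, at 45.0 TPM. The test was made on 21 groups and measures and chance flags about 1 in 20 of them. Its summed macrophage markers were 56.8 TPM, the lowest of the 5 Mid libraries, which reached 114 TPM, and the part of this in its Ucp2 level was not tested. Without this library, the rise of Ucp2 from the Pre to Mid in the second run was 1.4 (FDR = 0.00152).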

How the results depend on the processing

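All calls of Ucp3 kept their side of the threshold in the 442 alternative fits, and no value of either gene reversed a call. Of 442 fits for Ucp2, 21 lost the call. Without TMM, which moves the median of all clusters (HiT minus Fed, from 0.01 to -0.21), the change of Ucp2 was 0.53 for HiT minus Mid (FDR = 0.104), 0.73 for HiT minus Dep, 0.66 for Mid minus Fed and 0.61 for Dep minus Pre. Over all clusters, calls without TMM fell in each comparison of the first run (HiT minus Mid 1010 higher and 1313 lower against 2352 and 2070, HiT minus Pre 584 and 1390 against 1997 and 1607, HiT minus Fed 701 and 2260 against 2507 and 2150, Dep minus Mid 7 and 2 against 125 and 94). With only the 2 groups compared, HiT minus Mid was 0.61 (FDR = 0.0818), and with lane 3 only, Mid minus Pre of the second run was 1.21 (FDR = 0.0769).

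With replicate numbers as a replicate block, HiT minus Mid for Ucp2 was 0.32 (FDR = 0.291), the only call of the 2 genes that the block changed. Mid replicates 5 to 8 share their number with no other library of the run, so the blocked estimate rests on Mid replicates 1 to 4. Those had 12.9 to 23.8 TPM of Ucp2, against 6.47 to 12.2 TPM in Mid replicates 5 to 8. Whether numbers pair the mice cannot be settled from the data at hand. Same-numbered libraries correlated by -0.42 to 0.49 in their deviations, with a median of -0.02 against 0.01 for other pairs. Of 60 same-numbered pairs, 20 correlated by over 0.1, and 10 of 24 libraries correlated best with their own number. No paired analysis was possible for the second run because the Mid libraries, which enter both of its comparisons, share no number with the Pre or Post libraries.

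Leaving out 1 library at a time, Ucp2 ranged from 0.44 to 0.79 for HiT minus Mid, 0.55 to 0.85 for HiT minus Dep, 0.69 to 0.89 for Dep minus Pre and 1.14 to 1.4 for Mid minus Pre of the second run. The log2 ratio ranged from 0.91 to 1.14 for HiT minus Pre, 1.56 to 1.80 for Dep minus Pre, 0.75 to 1.2 for HiT minus Fed and -0.75 to -0.53 for HiT minus Dep, and in the second run, where a further loss leaves too few mice to pass, from 1.04 to 1.58 for Mid minus Pre and -2.10 to -1.77 for Post minus Mid. With upper-quartile scaling, calls from the Pre to Mid numbered 1282 higher and 2308 lower against 1659 and 1594, and from the Mid to Post 2535 and 1471 against 1881 and 1890. Dep minus Mid had 245 and 234 calls with DESeq2, 189 and 154 with the likelihood ratio test, 218 and 189 with the block and 2 and 0 with only these 2 groups, and Fed minus Pre had 413 and 218 with only its 2 groups against 634 and 573. Alternatives for the gene lists were chosen after seeing the data. The causes were not tested.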
